A study of Mus musculus with 15 samples.

Results

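Genes of the hypoxia pathway were followed in periprostatic white fat of obese and lean male mice. The set has 10 members, chosen by symbol from the 23995 gene symbols measured: the transcription factor subunits Hif1a, Epas1 and Arnt, the oxygen sensors Egln1 and Egln3, and the target genes Bnip3, Adm, Ankrd37, P4ha1 and Kdm3a. All 10 were found. The question was whether fat of mice on a high fat diet shows a hypoxia response, and how estradiol moves it.

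RNA of whole fat was sequenced from 15 mice labelled C57BL/6, 5 in each of 3 groups, all aged 26 weeks when the tissue was taken. HFD estradiol mice ate a diet with 60 kcal% fat from 6 weeks of age and, after 12 weeks, received under the skin a pellet with 0.25 mg of 17beta-estradiol (E2) that releases over 60 days. HFD placebo mice ate the same diet and received a placebo pellet at that time, and LFD mice ate a diet with 10 kcal% fat and received no pellet. All mice stayed on their diets for 8 more weeks. LFD therefore differs from both other groups in diet and in pellet placement at once. In whole tissue, fewer cells of a type and less RNA per cell cannot be told apart.

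Hypoxia-inducible factors are dimers of an alpha subunit, encoded by Hif1a or Epas1, and the partner encoded by Arnt. When oxygen is plentiful, prolyl hydroxylases such as those of Egln1 and Egln3 mark the alpha subunits, the von Hippel-Lindau protein binds them and they are destroyed; when oxygen is short they accumulate, pair with Arnt and bind DNA at the core letters ACGTG or GCGTG. The control of Hif1a and Epas1 is thus largely on the protein, which these data do not measure, while target genes are read out as RNA. Expanding fat of obese animals has been described as poorly supplied with oxygen, and hypoxia-inducible factors have been tied there to inflammation, matrix deposition and vessel growth.

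The core letters lay in the DNA just upstream of most members. Promoter windows of 250 bases before the RefSeq transcription start (GRCm38.p6) were searched for ACGTG and GCGTG on both strands, so also for CACGT and CACGC, and a CACGTG counts once on each strand. Of the 10 members 9 had windows, 11 in all, and 9 of these 11 windows held a match (81.8%), at least 1 for each of the 9 genes and 2 or more for 6 genes. Of all 32851 RefSeq windows, 12679 held one (38.6%), and among the 5467 windows of genes in the test over all genes 3138 did (57.4%). The windows of the members were also richer in CG, with a median of 19 CG dinucleotides against 16 for the genes in that test and 6 for all windows. The upstream windows of 4 members whose levels differed between groups are printed 5′ to 3′ on the strand of the gene, with the matches in capitals. Bnip3 (chr7:138909507-138909756, minus strand) holds the most, with 5. Adm (chr7:110627407-110627656, plus strand) holds 2, P4ha1 (chr10:59323046-59323295, plus strand) 3 and Egln3 (chr12:54203875-54204124, minus strand) 1, which lies 229 bases before the start.
Bnip3: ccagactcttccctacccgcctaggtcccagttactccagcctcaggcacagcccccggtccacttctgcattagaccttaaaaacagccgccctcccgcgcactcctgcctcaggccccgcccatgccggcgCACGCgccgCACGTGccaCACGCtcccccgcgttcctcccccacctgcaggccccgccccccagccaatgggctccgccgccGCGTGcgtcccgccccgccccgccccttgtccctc
Adm: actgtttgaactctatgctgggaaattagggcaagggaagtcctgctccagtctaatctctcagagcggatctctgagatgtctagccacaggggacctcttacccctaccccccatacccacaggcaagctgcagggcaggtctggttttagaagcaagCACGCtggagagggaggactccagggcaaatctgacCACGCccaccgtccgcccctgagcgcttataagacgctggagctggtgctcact
P4ha1: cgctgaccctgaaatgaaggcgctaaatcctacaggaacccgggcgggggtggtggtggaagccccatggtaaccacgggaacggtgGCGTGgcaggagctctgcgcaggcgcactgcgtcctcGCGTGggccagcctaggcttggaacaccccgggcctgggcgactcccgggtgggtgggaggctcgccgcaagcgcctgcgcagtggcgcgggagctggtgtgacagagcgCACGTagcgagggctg
Egln3: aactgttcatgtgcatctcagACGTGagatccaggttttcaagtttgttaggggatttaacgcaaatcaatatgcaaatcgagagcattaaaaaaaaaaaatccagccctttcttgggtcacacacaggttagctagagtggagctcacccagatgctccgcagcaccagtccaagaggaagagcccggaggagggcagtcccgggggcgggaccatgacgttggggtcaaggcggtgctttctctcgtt
A match is a description of letters, and binding was not measured.

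The deposited values are FPKM, fragment numbers corrected for transcript length and library depth. Their sum per library lay between 37561 and 60725 in HFD estradiol, between 34544 and 105910 in HFD placebo and between 34449 and 38755 in LFD, so each library was divided by a factor computed from genes seen in all 15, and the result is called scaled FPKM here. A scaled FPKM of 1 in a transcript of 2 kb stood for an estimated 36.7 to 96.3 fragments in HFD estradiol, 34.9 to 221.6 in HFD placebo and 20.6 to 40.1 in LFD, so LFD values are the least precise. All LFD libraries were on sequencing lane 5 and all HFD estradiol libraries on lane 6. HFD placebo mice 1 to 3 were on lane 5 and mice 4 and 5 on lane 6. HFD placebo mice 4 and 5 had the largest sums of all 15 libraries, 105910 and 99489. Every comparison within lane 6 rests on these libraries for HFD placebo. Values within 1 lane are given beside the comparisons of the members and of most other genes named; for HFD estradiol against LFD, lane and group cannot be told apart except through the HFD placebo libraries. The tissue carried the RNA of fat: 10 markers of mature adipocytes summed to at least 858 scaled FPKM in every library. The sum of 5 epithelial markers was at most 2.12. The sum of 5 skeletal muscle markers reached 23.8 in LFD (median 1.42), 13.7 in HFD estradiol (median 1.07) and 2.08 in HFD placebo (median 1.57). The part of muscle RNA in the results was not tested.

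The members did not move together. In HFD placebo fat, against LFD fat, Hif1a, P4ha1 and the vasodilator gene Adm were higher, while Epas1, Arnt, Egln1, Bnip3 and Egln3 were lower; the signs of Epas1, Arnt, Egln1 and Bnip3 turn with the FPKM as deposited, and those of Arnt and Egln1 also with equal library sums. In HFD estradiol fat, against HFD placebo fat, Bnip3, Arnt and Egln3 were higher, and no member was lower. None of these rises passed in limma within lane 6. As deposited, Bnip3 and Arnt did not pass in limma, Arnt with the other sign, and Egln3 did not pass in the exact test. In HFD estradiol fat, against LFD fat, Epas1 was lower, with the other sign as deposited and no call with lane as a term. Adm passed 1 of its 2 tests in that comparison. The differences in the 6 members that were abundant enough for the test over all genes were under 0.8 on the log2(scaled FPKM + 1) scale in size, a scale that understates changes of low genes.

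**Figure D1:**
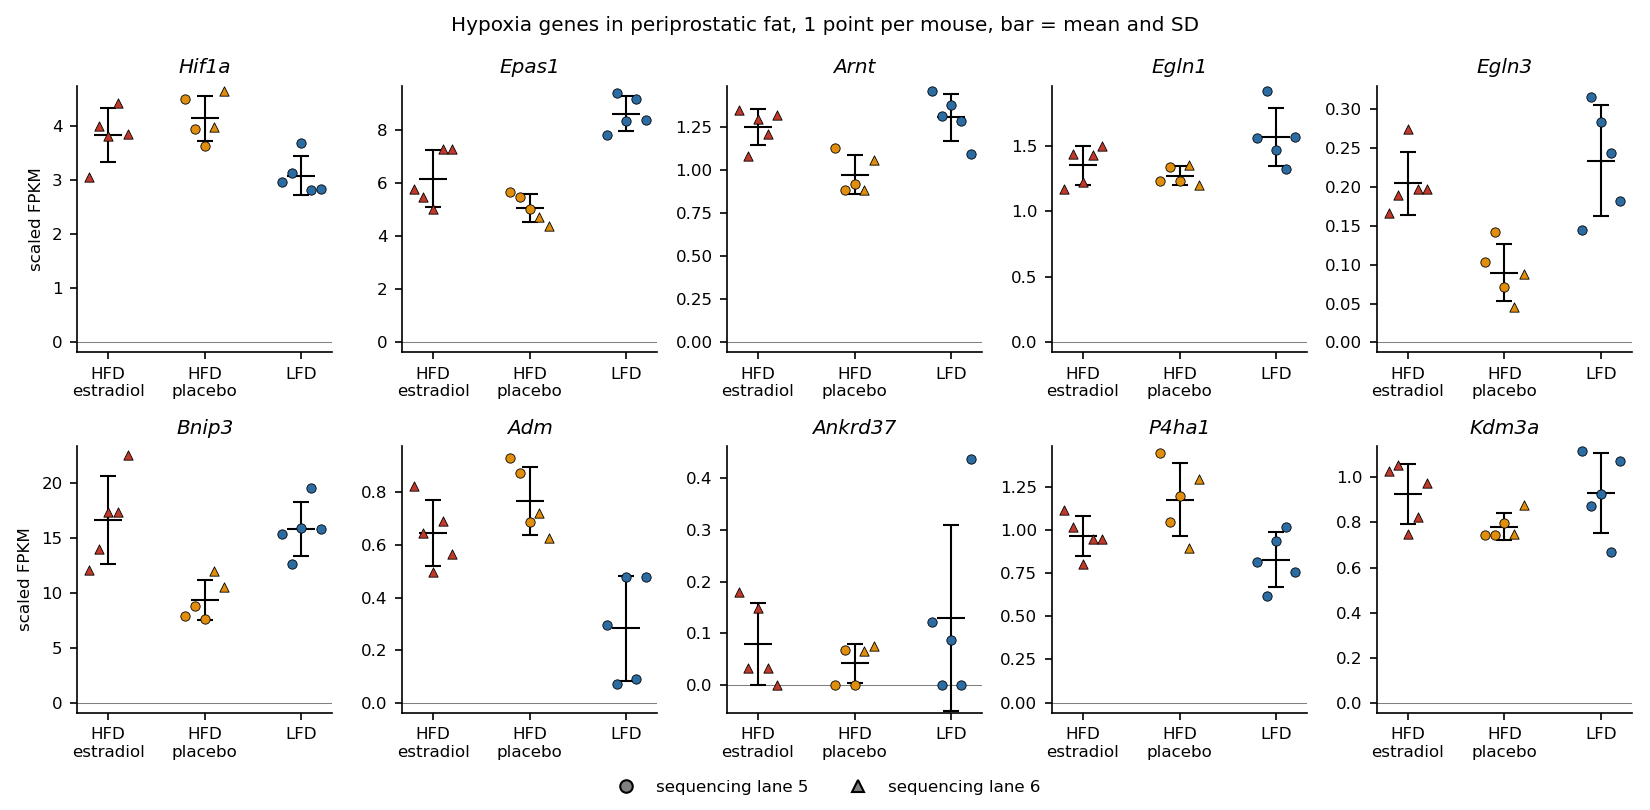
Scaled FPKM (vertical axes) of the 10 members in each mouse of HFD estradiol, HFD placebo and LFD, with the mean and SD of 5 mice as bars and the sequencing lane as the shape of the point. Epas1 of every LFD mouse lies above that of every mouse on the high fat diet, and Bnip3 of every HFD placebo mouse lies below that of every mouse of the other groups; with the FPKM as deposited these differences from LFD turn sign.

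Of the 3 subunit genes, Hif1a encodes HIF-1 alpha (chromosome 12, 73901375 to 73947530, plus strand, GRCm38, protein coding, as are all members). In mouse order, Hif1a measured 3.06, 4.005, 3.83, 4.44 and 3.86 scaled FPKM in HFD estradiol mice, 4.51, 3.95, 3.65, 3.99 and 4.65 in HFD placebo mice, and 2.97, 3.13, 3.70, 2.82 and 2.84 in LFD mice. HFD estradiol and HFD placebo overlapped widely, and of the LFD mice only mouse 3 reached into the range of HFD placebo. The means were 3.84 ± 0.499 in HFD estradiol, 4.15 ± 0.419 in HFD placebo and 3.09 ± 0.361 in LFD (SD, n = 5 each). Hif1a was higher in HFD placebo than in LFD, by 0.33 on the log2 scale (SE 0.09, limma adjusted p = 0.00519), and by 0.30 within lane 5 (adjusted p = 0.0361). Between HFD estradiol and HFD placebo the difference was -0.09 (95% interval -0.27 to 0.09, limma adjusted p = 0.452), and within lane 6 it was -0.14 (adjusted p = 0.491). HFD estradiol and LFD differed by 0.24 (limma adjusted p = 0.109), which passed when HFD estradiol mouse 1 (adjusted p = 0.0414) or LFD mouse 3 (adjusted p = 0.0488) was left out.

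Epas1, which encodes HIF-2 alpha and is known for its abundance in vessel lining cells (chromosome 17, 86753700 to 86833410, plus strand), went the other way. It measured 5.77, 5.45, 5.02, 7.29 and 7.275 scaled FPKM in HFD estradiol mice, 5.66, 5.46, 5.00, 4.72 and 4.36 in HFD placebo mice, and 7.79, 9.39, 8.32, 9.14 and 8.36 in LFD mice. No mouse on the high fat diet reached the lowest LFD mouse, whereas HFD estradiol and HFD placebo overlapped, with HFD estradiol mice 1, 4 and 5 above all HFD placebo mice. Epas1 averaged 6.16 ± 1.06 in HFD estradiol, 5.04 ± 0.531 in HFD placebo and 8.60 ± 0.652 in LFD. It fell by 0.67 in HFD placebo against LFD (SE 0.10, limma adjusted p = 6.08e-05) and by 0.59 within lane 5 (adjusted p = 8.52e-04). HFD estradiol against HFD placebo gave 0.24 (95% interval 0.03 to 0.45, limma adjusted p = 0.0824), and 0.36 within lane 6 (adjusted p = 0.157). HFD estradiol against LFD gave -0.43 (limma adjusted p = 0.0149), a call that was lost with lane as a term, at -0.23 (adjusted p = 0.472).

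Arnt, the shared partner subunit (chromosome 3, 95434388 to 95497240, plus strand), was lowest in HFD placebo. Its values were 1.34, 1.08, 1.29, 1.21 and 1.31 scaled FPKM in HFD estradiol mice, 1.12, 0.880, 0.916, 0.880 and 1.06 in HFD placebo mice, and 1.455, 1.31, 1.38, 1.28 and 1.09 in LFD mice. HFD placebo mouse 1 overlapped with both other groups, and the other 4 HFD placebo mice lay below every HFD estradiol and LFD mouse. Arnt fell by 0.22 in HFD placebo against LFD (SE 0.06, limma adjusted p = 0.00492; within lane 5, -0.22 with adjusted p = 0.0473). It was higher by 0.19 in HFD estradiol than in HFD placebo (SE 0.06, limma adjusted p = 0.0192), and the difference of the same size within lane 6 did not pass (adjusted p = 0.126). HFD estradiol and LFD differed by -0.03 (95% interval -0.16 to 0.09, limma adjusted p = 0.773).

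The sensor Egln1 encodes PHD2, the main prolyl hydroxylase acting on the alpha subunits (chromosome 8, 124908587 to 124949324, minus strand). It measured 1.17, 1.44, 1.22, 1.43 and 1.50 scaled FPKM in HFD estradiol mice, 1.23, 1.34, 1.23, 1.36 and 1.20 in HFD placebo mice, and 1.56, 1.92, 1.47, 1.32 and 1.57 in LFD mice. Only LFD mouse 4 fell within the range of HFD placebo. Egln1 was lower in HFD placebo than in LFD by a small margin, at -0.17 (SE 0.06, limma adjusted p = 0.0351), but the call did not hold within lane 5 (-0.17, adjusted p = 0.13) or without LFD mouse 2 (-0.13, adjusted p = 0.0912). It also missed the threshold without LFD mouse 1 or 5 and without HFD placebo mouse 1, 3 or 5. Egln1 differed by 0.05 between HFD estradiol and HFD placebo (95% interval -0.09 to 0.18, limma adjusted p = 0.609; within lane 6, 0.04 with adjusted p = 0.767) and by -0.13 between HFD estradiol and LFD (limma adjusted p = 0.264).

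Egln3 encodes PHD3, a sensor that is itself a textbook target of the factors (chromosome 12, 54178981 to 54203860, minus strand). It was rare, with an estimated 4.9 to 24.8 fragments per library. Its scaled FPKM was 0.166, 0.189, 0.274, 0.197 and 0.197 in HFD estradiol mice, 0.103, 0.142, 0.0708, 0.0455 and 0.0878 in HFD placebo mice, and 0.144, 0.316, 0.2835, 0.243 and 0.181 in LFD mice. All HFD placebo mice lay below all mice of the other groups, although HFD placebo mouse 2 at 0.142 and LFD mouse 1 at 0.144 nearly touched. The mean in HFD placebo was 0.385 times that in LFD (exact two-sided permutation p = 0.00794, n = 5 each), and the mean in HFD estradiol was 2.28 times that in HFD placebo (exact p = 0.00794). With 5 mice in each group, 0.0079 is the smallest p this test can give. In limma with no filter on low values, adjusted over 18880 genes, the differences were -0.18 (adjusted p = 0.00511) and 0.14 (adjusted p = 0.0257). Within lane 5 the permutation test gave p = 0.0357 (exact) and limma an adjusted p of 0.103, and within lane 6 they gave p = 0.0952 (exact) and an adjusted p of 0.0745. With 3 against 5 libraries in lane 5 and 5 against 2 in lane 6, these exact p-values are the smallest the test can give, and the groups do not overlap in either lane. The means of HFD estradiol and LFD differed by less than the spread between mice (exact p = 0.444); with the FPKM as deposited the sign turned and the means were 0.236 in HFD estradiol and 0.146 in LFD (exact p = 0.0397). As deposited, Egln3 did not pass in HFD placebo against LFD (exact p = 0.722) or in HFD estradiol against HFD placebo (exact p = 0.0635).

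Among the targets, Bnip3 encodes a mitochondrial outer membrane protein that takes part in the removal of mitochondria (chromosome 7, 138890836 to 138909519, minus strand), and it was the most abundant member. It measured 12.0, 14.0, 17.3, 17.4 and 22.5 scaled FPKM in HFD estradiol mice, 7.92, 8.79, 7.63, 11.95 and 10.5 in HFD placebo mice, and 15.3, 12.6, 15.9, 19.5 and 15.8 in LFD mice. Every HFD placebo mouse lay below every other mouse, with HFD placebo mouse 4 just under HFD estradiol mouse 1. The means were 16.6 ± 4.00 in HFD estradiol, 9.35 ± 1.83 in HFD placebo and 15.8 ± 2.46 in LFD. Bnip3 fell by 0.70 in HFD placebo against LFD (SE 0.16, limma adjusted p = 0.00196), and by 0.87 within lane 5 (adjusted p = 6.30e-04). It was higher by 0.76 in HFD estradiol than in HFD placebo (SE 0.16, limma adjusted p = 0.00173). The HFD placebo libraries of lane 5 averaged 8.11 and those of lane 6 averaged 11.2, and within lane 6 the difference between HFD estradiol and HFD placebo was 0.50 and did not pass (adjusted p = 0.169). HFD estradiol and LFD differed by 0.05 (95% interval -0.28 to 0.39, limma adjusted p = 0.875).

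Adm encodes adrenomedullin, a secreted peptide that widens vessels (chromosome 7, 110627661 to 110629820, plus strand). It measured 0.826, 0.645, 0.497, 0.690 and 0.565 scaled FPKM in HFD estradiol mice, 0.932, 0.8755, 0.687, 0.723 and 0.627 in HFD placebo mice, and 0.296, 0.0722, 0.477, 0.0910 and 0.480 in LFD mice. All mice on the high fat diet lay above all LFD mice, whose 5 libraries held an estimated 1.0 to 8.9 fragments. The HFD placebo mean was 2.71 times the LFD mean (exact permutation p = 0.00794; limma with no filter, 0.47, adjusted p = 0.00209). Within lane 5 the exact test gave p = 0.0357, the smallest it can give there, and limma an adjusted p of 0.0509. The HFD estradiol mean was 2.27 times the LFD mean (exact p = 0.00794), but limma over all genes gave 0.37 with an adjusted p of 0.0597. HFD estradiol and HFD placebo overlapped (exact p = 0.159), also within lane 6 (exact p = 0.762).

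P4ha1 encodes a catalytic subunit of the collagen prolyl hydroxylase (chromosome 10, 59323296 to 59373304, plus strand). Its values were 1.115, 1.02, 0.802, 0.945 and 0.945 scaled FPKM in HFD estradiol mice, 1.44, 1.04, 1.19, 0.898 and 1.295 in HFD placebo mice, and 0.817, 0.615, 0.936, 1.02 and 0.756 in LFD mice. The HFD placebo group was the highest and overlapped with LFD only through HFD placebo mouse 4. P4ha1 was higher in HFD placebo than in LFD by 0.25 (SE 0.08, limma adjusted p = 0.016), and by 0.28 within lane 5 (adjusted p = 0.0404). It reached the level for testing, a scaled FPKM of 1 in 5 or more libraries, only with the HFD placebo mice. In limma with no filter on low values, this difference had an adjusted p of 0.0275. HFD estradiol differed from HFD placebo by -0.14 (95% interval -0.31 to 0.02, limma adjusted p = 0.179; within lane 6, -0.09 with adjusted p = 0.583) and from LFD by 0.11 (limma adjusted p = 0.459), so that it lay between the other groups without passing against either.

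The 2 remaining targets did not pass in any comparison with all 15 libraries. Kdm3a encodes a histone demethylase that removes methyl groups from lysine 9 of histone H3 (chromosome 6, 71588972 to 71632990, minus strand). It measured 1.03, 1.055, 0.749, 0.823 and 0.977 scaled FPKM in HFD estradiol mice, 0.744, 0.743, 0.796, 0.748 and 0.878 in HFD placebo mice, and 1.12, 0.8715, 0.926, 0.667 and 1.075 in LFD mice. The groups overlapped in all 3 comparisons, with exact permutation p = 0.143 for HFD placebo against LFD, p = 0.0635 for HFD estradiol against HFD placebo and p = 0.952 for HFD estradiol against LFD. Within lane 5 the exact p was 0.214 and within lane 6 it was 0.381. Kdm3a passed in HFD placebo against LFD without LFD mouse 4 (exact p = 0.0317), and in HFD estradiol against HFD placebo without HFD estradiol mouse 3 (exact p = 0.0317) or 4 (exact p = 0.0476) or without HFD placebo mouse 5 (exact p = 0.0317). With the FPKM as deposited its signs turned in all 3 comparisons, and none passed. The differences in mean were then 0.797 in HFD placebo against LFD (exact p = 0.143), -0.307 in HFD estradiol against HFD placebo (exact p = 0.54) and 0.490 in HFD estradiol against LFD (exact p = 0.0556). Ankrd37, a small ankyrin-repeat gene (chromosome 8, 45996902 to 46005707, minus strand), had a median of 1.0 estimated fragment in each group and reached 0.1795 scaled FPKM in HFD estradiol, 0.0746 in HFD placebo and 0.437 in LFD at most. It was listed at 0 in 1 HFD estradiol, 2 HFD placebo and 2 LFD libraries. A difference was not detectable at this depth (exact permutation p = 0.405, 0.405 and 0.738 in the same order of comparisons, 0.357 within lane 5 and 0.952 within lane 6).

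**Figure D2:**
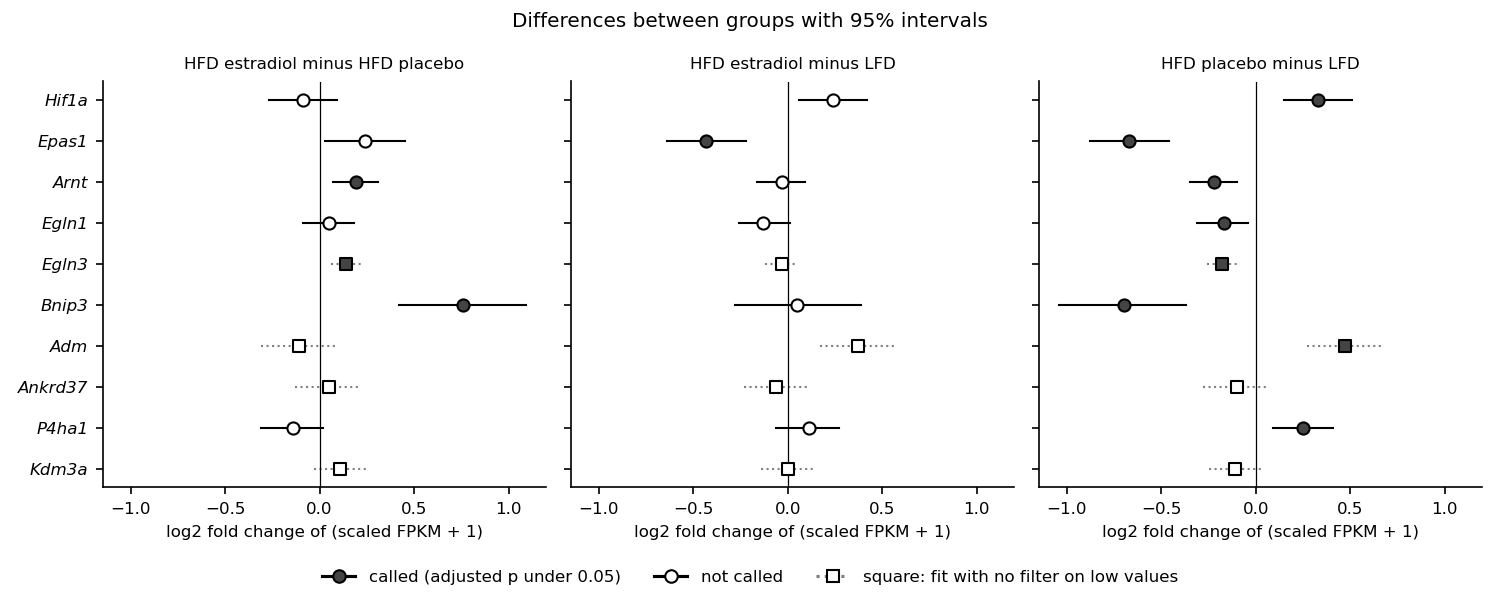
Fold changes on the log2(scaled FPKM + 1) scale (horizontal axes) of the 10 members in the 3 comparisons, with 95% intervals; filled points passed at an adjusted p under 0.05, and squares are the 4 genes taken from the fit with no filter. Bnip3 lies at -0.70 for HFD placebo minus LFD (0.38 with the FPKM as deposited) and at 0.76 for HFD estradiol minus HFD placebo.

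Set against all genes, the counts of members were as follows. A gene is called when its limma adjusted p is under 0.05. Of the 6 members in the test over 5615 genes, 2 were higher (Hif1a and P4ha1) and 4 were lower (Epas1, Arnt, Egln1 and Bnip3) in HFD placebo than in LFD, where 21.3% of all tested genes were called higher and 22.0% lower. P4ha1 reached the level for testing only with the HFD placebo mice, so its place among the 6 is not independent of its high level there. In HFD estradiol against HFD placebo, 2 of the 6 were higher (Arnt and Bnip3) and 0 lower, where 14.3% of tested genes were called higher and 16.0% lower; at an unadjusted p under 0.05, 3 of the 6 were higher and 0 lower. In HFD estradiol against LFD, 0 were higher and 1 was lower (Epas1), where 3.95% of tested genes were called higher and 3.74% lower; at an unadjusted p under 0.05, 1 of the 6 was higher. Shares of all tested genes at an unadjusted p under 0.05 are not given here. The medians of the 6 differences were -0.20, 0.12 and 0.01 in these comparisons, beside -0.014, 0.008 and -0.005 for all tested genes. With no filter on low values, 7 of the 10 members were called in HFD placebo against LFD, where 20.7% of 18880 genes were, 3 in HFD estradiol against HFD placebo (13.8% of genes) and 1 in HFD estradiol against LFD (2.11%). Egln1 missed the threshold in that fit (adjusted p = 0.0603). The first 2 comparisons share the HFD placebo mice, so opposite signs in them are not independent of each other.

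The signs of the 4 lower members turned with the FPKM as deposited, and those of Arnt and Egln1 also with equal sums. With the FPKM as deposited, the median of all tested genes itself shifted by 0.77 in HFD placebo against LFD, by -0.27 in HFD estradiol against HFD placebo and by 0.49 in HFD estradiol against LFD. On that scale Epas1 stood at 0.35, Arnt at 0.44, Egln1 at 0.56 and Bnip3 at 0.38 in HFD placebo against LFD, and none of the 4 was called; relative to the shifted median these are -0.42, -0.33, -0.21 and -0.39. Hif1a (1.25, adjusted p = 0.00933) and P4ha1 (0.85, adjusted p = 0.0112) were called higher on that scale too, and relative to the median they stood at 0.48 and 0.08. With every library scaled to the same sum, the median shifted by 0.28 in HFD placebo against LFD, Hif1a and P4ha1 remained called and the 4 lower members were not. Epas1 and Bnip3 stayed negative there, both at -0.28, while Arnt stood at 0.02 and Egln1 at 0.1. Relative to that median Epas1 and Bnip3 stood at -0.56, Arnt at -0.26 and Egln1 at -0.18. Bnip3 in HFD estradiol against HFD placebo stood at 0.42 as deposited (adjusted p = 0.776) and at 0.70 with equal sums (adjusted p = 0.0231). Arnt in that comparison stood at -0.05 as deposited, which is 0.22 above the shifted median, and Epas1 in HFD estradiol against LFD stood at 0.28, which is -0.21 relative to it.

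**Figure D3:**
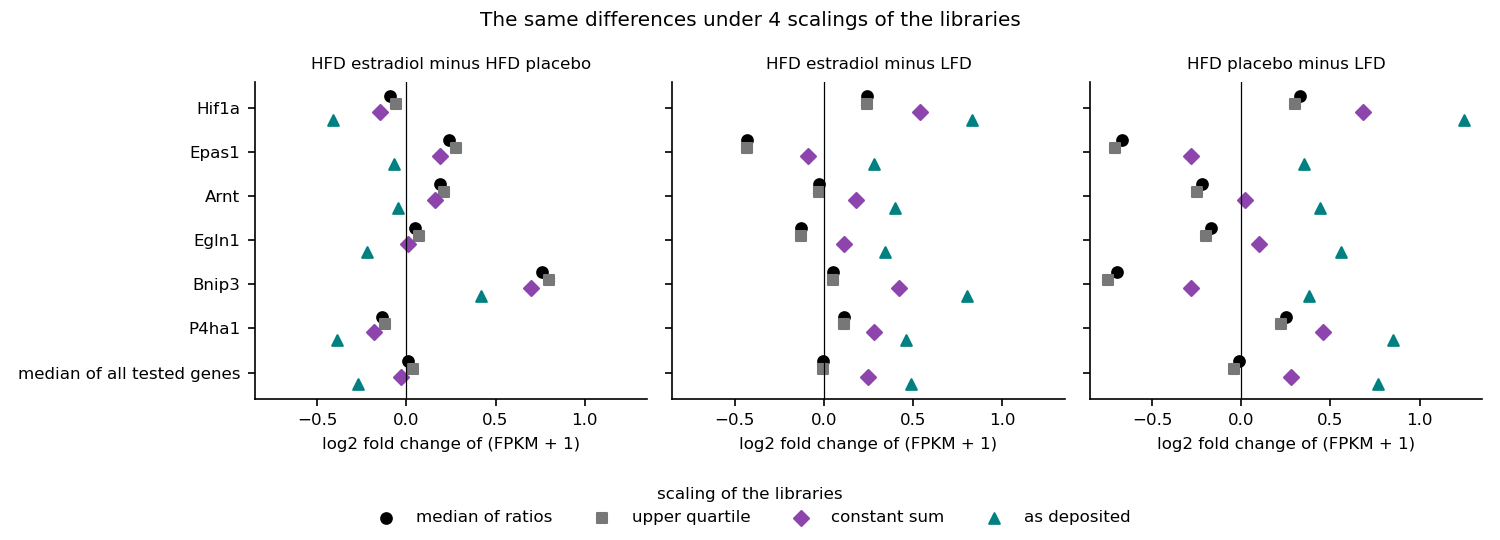
The log2 fold changes (horizontal axes) of the 6 tested members and the median of all tested genes under 4 scalings of the libraries, in the 3 comparisons. With the FPKM as deposited the median of all tested genes lies at 0.77 for HFD placebo minus LFD, and Epas1, Arnt, Egln1 and Bnip3 lie to its left.

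Markers of cell types moved with the same comparisons on the scaled FPKM. Their differences under other scalings or within 1 lane are not given here. As deposited, the median of all tested genes shifted by 0.77 in HFD placebo against LFD. Whether the adipocyte markers keep their sign there was not tested. Of all tested genes 21.3% were called higher and 22.0% lower in that comparison. The shares were 14.3% and 16.0% in HFD estradiol against HFD placebo, and 3.95% and 3.74% in HFD estradiol against LFD. All 10 macrophage markers were higher in HFD placebo than in LFD (median difference 2.06), and all 10 were lower in HFD estradiol than in HFD placebo (median -1.52). In HFD estradiol against LFD, 4 of the 10 were higher and 0 lower (median 0.7). Their sum lay between 56.9 and 129 scaled FPKM in HFD estradiol, between 156 and 385 in HFD placebo and between 28.96 and 54.8 in LFD, and these ranges do not overlap. All 10 markers of mature adipocytes were lower in HFD placebo than in LFD (median -0.86), and 9 of 10 were higher in HFD estradiol than in HFD placebo (median 0.72). Their sum lay between 1284 and 1819 in HFD estradiol, between 858 and 1429 in HFD placebo and between 1267 and 1923 in LFD. Of 10 endothelial markers 3 were lower in HFD placebo than in LFD (median -0.11), 1 was higher in HFD estradiol than in HFD placebo (median 0.03) and 0 were called between HFD estradiol and LFD (at an unadjusted p under 0.05, 1 higher and 1 lower), with sums of 25.3 to 30.2 in HFD estradiol, 24.5 to 34.3 in HFD placebo and 28.1 to 33.2 in LFD. Of 6 markers of adipose progenitors 2 were higher in HFD placebo than in LFD, 3 were higher in HFD estradiol than in HFD placebo and 3 in HFD estradiol than in LFD, and none was lower. No marker of these lists was at 0 in all libraries. Shares of all tested genes at an unadjusted p under 0.05 are not given here. The part of the cell makeup in the results on Hif1a, Epas1, Arnt, Egln3, Bnip3, Adm and P4ha1 was not tested.

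Beyond the members, 68 other genes of the pathway were followed, and 41 of them were abundant enough to be tested. In HFD placebo against LFD 12 were higher and 9 lower, with a median difference of 0.03, where 21.3% of all tested genes were called higher and 22.0% lower. In HFD estradiol against HFD placebo 5 were higher and 11 lower (median -0.14), where 14.3% of all tested genes were called higher and 16.0% lower. In HFD estradiol against LFD 3 were higher and 2 lower (median -0.08), where 3.95% were called higher and 3.74% lower. As deposited, the calls in HFD placebo against LFD split into 25 higher and 0 lower. With equal sums they split into 20 higher and 2 lower. The median of all tested genes itself shifted by 0.77 as deposited, beside 0.84 for these 41 genes. With equal sums the medians were 0.28 for all tested genes and 0.4 for the 41. The calls in HFD estradiol against HFD placebo split into 1 higher and 2 lower as deposited and 1 higher and 6 lower with equal sums. Those in HFD estradiol against LFD split into 1 higher and 0 lower as deposited and 3 higher and 0 lower with equal sums. Within lane 5, 8 were higher and 8 lower in HFD placebo against LFD, and within lane 6, 2 were higher and 7 lower in HFD estradiol against HFD placebo. Shares of all tested genes called higher or lower under the other scalings or within 1 lane are not given here.

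Genes for vessels, acid balance and matrix were the group with the most calls for its size. Of 8 tested, 6 were higher and 2 lower in HFD placebo than in LFD, with a median difference of 0.56. Of all tested genes 21.3% were called higher and 22.0% lower in that comparison. Within lane 5, 5 of the 8 were higher and 2 lower. Shares of all tested genes within lane 5 are not given here. Plod2, among the 6 higher genes, reached the level for testing only through the HFD estradiol mice. Plod1, a collagen lysyl hydroxylase, averaged 3.295 ± 0.414 scaled FPKM in HFD placebo and 1.90 ± 0.172 in LFD (0.56, limma adjusted p = 8.3e-06; within lane 5, 0.58 with adjusted p = 8.76e-04). Vegfa, the vessel growth factor and best known hypoxia target, fell to 3.16 ± 0.687 in HFD placebo, against 5.77 ± 1.17 in LFD (-0.70, limma adjusted p = 4.3e-04; within lane 5, -0.75 with adjusted p = 0.00334), and stood at 0.28 with the FPKM as deposited (limma adjusted p = 0.504), below the median shift of 0.77. Car9, a carbonic anhydrase and common hypoxia marker, lay far below the tested level, at 0.0658 ± 0.0341 in HFD placebo and 0.0365 ± 0.0270 in LFD (limma with no filter, adjusted p = 0.21; within lane 5, 0.173). That value passed with lane as a term (adjusted p = 0.0341) and with the FPKM as deposited (adjusted p = 0.0036).

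With estradiol, 1 of these 8 genes was higher and 4 were lower than in HFD placebo (median -0.32), beside 14.3% and 16.0% of all tested genes. Within lane 6, where fewer of all tested genes were called, 1 was higher and 2 were lower. The higher one was Plod2, another collagen lysyl hydroxylase. It lay between 1.82 and 3.76 scaled FPKM in HFD estradiol and between 0.456 and 0.725 in HFD placebo. In LFD it lay between 0.0787 and 0.316, and none of the 3 groups overlapped. Plod2 thus reached the level for testing, a scaled FPKM of 1 in 5 or more libraries, only through the HFD estradiol mice. Its place among the 8 tested genes is not independent of its high level in that group. Plod2 was higher by 1.20 in HFD estradiol than in HFD placebo (limma adjusted p = 4.0e-06; within lane 6, 1.19 with adjusted p = 0.00918), by 0.40 in HFD placebo than in LFD (limma adjusted p = 0.0089) and by 1.60 in HFD estradiol than in LFD (limma adjusted p = 4.2e-07). Its call in each comparison held under every alternative run. Lox, which crosslinks collagen, averaged 2.23 ± 0.338 in HFD estradiol and 4.37 ± 1.08 in HFD placebo (-0.71, limma adjusted p = 9.3e-04; within lane 6, -0.78 with adjusted p = 0.00796), a call lost with deposited FPKM. Car9 averaged 0.0133 ± 0.00986 in HFD estradiol and 0.0658 ± 0.0341 in HFD placebo, and was lower in limma with no filter (-0.07, adjusted p = 0.032) but not within lane 6 (-0.03, adjusted p = 0.166) or with lane as a term (adjusted p = 0.645). Vegfa averaged 3.80 ± 0.583 in HFD estradiol, which did not pass against HFD placebo (limma adjusted p = 0.23). Against LFD, 2 of the 8 were higher and 1 lower, beside 3.95% and 3.74% of all tested genes. The higher ones were Plod2 and Plod1 (Plod1 at 0.27, limma adjusted p = 0.022). The call of Plod1 was lost with deposited FPKM, with lane as a term, without HFD estradiol mouse 4 and without LFD mouse 2. The lower one was Vegfa at -0.49 (limma adjusted p = 0.03), a call lost under 12 of 23 alternatives.

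Of 14 tested genes of glucose uptake and glycolysis, 3 were higher and 2 lower in HFD placebo than in LFD, with a median of 0.07. Of all tested genes 21.3% were called higher and 22.0% lower, so these counts lie near or below that share. Within lane 5, 1 was higher and 2 lower, and without LFD mouse 2, 6 were higher and 2 lower. Shares of all tested genes in those fits are not given here. Hk2, a hexokinase, averaged 1.50 ± 0.418 scaled FPKM in HFD placebo and 3.22 ± 1.38 in LFD (limma adjusted p = 0.0019), and the glycolytic enzyme gene Tpi1 averaged 19.5 ± 2.05 in HFD placebo and 13.9 ± 2.75 in LFD (limma adjusted p = 0.012). Within lane 5 Hk2 stood at -0.81 (adjusted p = 0.0119) and Tpi1 at 0.42 (adjusted p = 0.045). The call of Hk2 was lost with deposited FPKM, where its sign turned, or equal sums, and that of Tpi1 with lane as a term (adjusted p = 0.0502). Ldha, a lactate dehydrogenase subunit, averaged 17.7 ± 2.75 in HFD estradiol, 20.96 ± 2.08 in HFD placebo and 20.6 ± 3.35 in LFD and passed in no comparison, except in HFD placebo against LFD with the FPKM as deposited (limma adjusted p = 0.0374). In HFD estradiol, 1 gene was higher and 4 were lower than in HFD placebo (median -0.26), beside 14.3% and 16.0% of all tested genes. Within lane 6, where fewer of all tested genes were called, 0 were higher and 3 lower. Pkm, pyruvate kinase, averaged 10.1 ± 1.20 in HFD estradiol and 17.7 ± 1.65 in HFD placebo (-0.76, limma adjusted p = 0.0019). Pfkl, a phosphofructokinase, averaged 1.75 ± 0.196 in HFD estradiol and 2.83 ± 0.444 in HFD placebo (-0.47, limma adjusted p = 0.013). Within lane 6 Pkm stood at -0.62 (adjusted p = 0.0232) and Pfkl at -0.60 (adjusted p = 0.01). Both calls were lost with deposited FPKM, and that of Pkm also with lane as a term. No gene of the 14 passed limma in HFD estradiol against LFD. At an unadjusted p under 0.05, 0 were higher and 6 lower. The share of all tested genes at that unadjusted threshold is not given here, so the count cannot be set against it.

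Below the tested level, Slc2a1, the glucose transporter GLUT1, averaged 0.258 ± 0.0818 scaled FPKM in HFD estradiol, 0.438 ± 0.0625 in HFD placebo and 0.510 ± 0.0439 in LFD. In limma with no filter it was lower in HFD estradiol than in HFD placebo (-0.19, adjusted p = 0.011) and than in LFD (-0.27, adjusted p = 0.0082), and did not pass between HFD placebo and LFD (adjusted p = 0.34). The difference between HFD estradiol and HFD placebo did not pass within lane 6 (-0.19, limma adjusted p = 0.207). With lane as a term the call of HFD estradiol against LFD was lost (limma adjusted p = 0.237). As deposited, neither call held, with -0.39 against HFD placebo (limma adjusted p = 0.344) and -0.03 against LFD (limma adjusted p = 0.942). Pdk1, a kinase that holds back pyruvate dehydrogenase, averaged 0.708 ± 0.0486 in HFD estradiol, 0.670 ± 0.0567 in HFD placebo and 1.34 ± 0.579 in LFD, and was lower in HFD placebo than in LFD (-0.46, limma with no filter, adjusted p = 0.008), though not within lane 5 (-0.45, adjusted p = 0.18) or as deposited, where the sign turned (0.18, adjusted p = 0.531).

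Among 7 tested regulators, 1 was higher and 1 lower in HFD placebo than in LFD, with a median of -0.09. Of all tested genes 21.3% were called higher and 22.0% lower there, and 14.3% and 16.0% in HFD estradiol against HFD placebo. Shares at an unadjusted p under 0.05 are not given here. The higher was Tceb1, the elongin C of the von Hippel-Lindau complex (0.26, limma adjusted p = 0.001), and the lower was Crebbp, a coactivator of the factors (-0.23, limma adjusted p = 0.0082). Tceb1 stood at 0.26 within lane 5 too (adjusted p = 0.0197). The call of Crebbp was lost within lane 5 (-0.17, adjusted p = 0.139), with lane as a term, and with deposited FPKM or equal sums, under both of which its sign turned. Crebbp was also the 1 regulator higher in HFD estradiol than in HFD placebo (0.23, limma adjusted p = 0.014; within lane 6, 0.31 with adjusted p = 0.0289; lost with equal sums and with deposited FPKM, where the sign turned), with 0 lower, and none passed limma in HFD estradiol against LFD, where 1 was higher and 1 lower at an unadjusted p under 0.05. The sensor Egln2, which encodes PHD1, averaged 1.65 ± 0.236 in HFD estradiol, 1.47 ± 0.218 in HFD placebo and 1.81 ± 0.383 in LFD and passed in no comparison unless LFD mouse 3 was left out (HFD placebo against LFD, -0.27, limma adjusted p = 0.0135). Vhl and Hif1an, the asparagine hydroxylase of the alpha subunits, lay below the tested level and passed in none with all 15 libraries and no filter; with lane as a term Vhl was lower in HFD estradiol than in HFD placebo (-0.42, adjusted p = 0.0252; within lane 6, 0.0422). Hif3a, a further alpha subunit, was rare, at 0.0207 ± 0.00626 in HFD placebo and 0.0700 ± 0.0276 in LFD. Hif3a was lower in HFD placebo in limma with no filter (adjusted p = 0.0044). It did not pass within lane 5 (adjusted p = 0.102) or as deposited (-0.02, adjusted p = 0.526).

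Of 12 tested genes with other roles, 2 were higher and 4 lower in HFD placebo than in LFD (median -0.10). Of all tested genes 21.3% were called higher and 22.0% lower in that comparison. Hmox1, the heme oxygenase that also marks oxidative stress and heme-loaded macrophages, averaged 2.40 ± 0.979 in HFD estradiol, 6.94 ± 1.06 in HFD placebo and 1.24 ± 0.259 in LFD. It was higher in HFD placebo than in LFD (1.82, limma adjusted p = 4.8e-07; within lane 5, 1.92 with adjusted p = 2.48e-06) and lower in HFD estradiol than in HFD placebo (-1.25, limma adjusted p = 1.8e-05; within lane 6, -1.11 with adjusted p = 0.0189). Gys1, glycogen synthase, averaged 1.65 ± 0.443 in HFD placebo and 3.90 ± 0.840 in LFD (-0.88, limma adjusted p = 4.8e-05; within lane 5, -0.97 with adjusted p = 5.74e-04), and as deposited the call was lost and the sign turned. Ndrg1, a stress-response gene, averaged 2.68 ± 0.332 in HFD estradiol, 2.01 ± 0.280 in HFD placebo and 3.10 ± 0.618 in LFD. Its fall in HFD placebo against LFD passed (-0.44, limma adjusted p = 0.0031; within lane 5, -0.43 with adjusted p = 0.0263) but was lost with equal sums and with deposited FPKM, where the sign turned. Its rise in HFD estradiol against HFD placebo (0.29, limma adjusted p = 0.046) was lost under 14 of 24 alternatives. Bnip3l, a relative of Bnip3, and Ddit4, an inhibitor of growth signalling, passed in no comparison. In HFD placebo against LFD, Ddit4 was called higher with the FPKM as deposited (limma adjusted p = 0.0118) or equal sums (limma adjusted p = 0.029). Bnip3l was called lower there with an upper-quartile factor (limma adjusted p = 0.0428) or without LFD mouse 4 (limma adjusted p = 0.0495).

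In HFD estradiol against HFD placebo, 2 of these 12 genes were higher and 3 lower (median -0.03), beside 14.3% and 16.0% of all tested genes. Vldlr, a lipoprotein receptor, averaged 1.41 ± 0.188 in HFD estradiol and 2.28 ± 0.455 in HFD placebo (-0.44, limma adjusted p = 0.0011). Within lane 6 Vldlr stood at -0.58 (limma adjusted p = 0.0137), and its call was lost with deposited FPKM. Against LFD, HFD estradiol had 1 higher and 1 lower, beside 3.95% and 3.74% of all tested genes. The higher was Hmox1 (0.57, limma adjusted p = 0.026). The lower was Ppp1r3c, a glycogen-targeting subunit of protein phosphatase (-0.79, limma adjusted p = 0.035). The call of Hmox1 was lost under 7 of 23 alternatives and that of Ppp1r3c under 12.

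**Figure D4:**
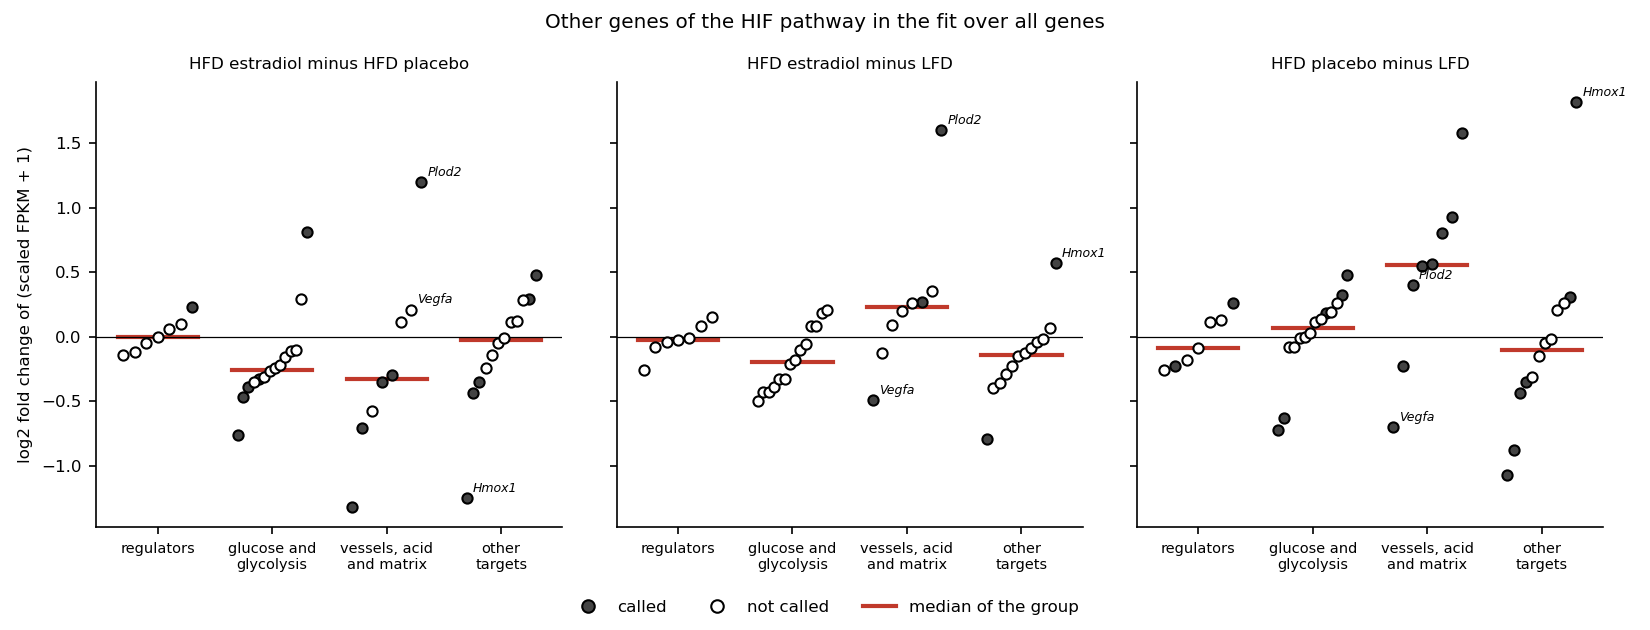
Log2 fold changes (vertical axes) of the 41 tested pathway genes outside the member list, in 4 groups by role, for the 3 comparisons; filled points were called and red bars are the medians of the groups. The group of vessels, acid balance and matrix has a median of 0.56 for HFD placebo minus LFD and of -0.32 for HFD estradiol minus HFD placebo.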

How the data were processed

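Ribosomal RNA-depleted, stranded libraries were made from total RNA with an integrity number above 7, per the labels' protocols. STAR, Cufflinks and the mouse build mm10 are named in the submitters' processing notes; the sources used here name no annotation. FPKM per gene symbol were deposited by the authors, 1 file per library, and no counts were used. Groups are those of the labels. Replicate numbers mark separate mice, so libraries were unpaired and p-values measure the spread between mice. File names gave the lanes.

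Each library was divided by a median-of-ratios factor (0.481 to 3.23) over 5874 genes. Genes that reached a scaled FPKM of 1 in 5 or more libraries (5615) were tested as log2(scaled FPKM + 1) with limma 3.58.1 in R 4.3.3 (group as the factor, mean-variance trend, robust moderation), adjusted by Benjamini and Hochberg within each comparison, with a threshold of 0.05. Egln3, Adm, Ankrd37 and Kdm3a lay below that level and were compared by exact two-sided permutation tests of the difference in mean (scipy 1.17.1, Python 3.11.15), beside limma with no filter on 18880 genes. The fits were tested on simulated data. Depth was estimated from the spacing of the lowest values of 1636 single-transcript genes; 59.6% to 70.7% of these values were whole multiples within 2%, too few for a count test.

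The members and lists were chosen with earlier results of these data known. All 10 members are named; of the other pathway genes, up to 2 with the smallest adjusted p in each group and comparison are named with 12 fixed names. A further gene that this rule selects is not reported here. Positions are from GENCODE vM21 (GRCm38), promoter windows from RefSeq. Alternatives covered scaling, pseudocount, filter, lane, the groups fitted, the replicate block and leaving out each mouse.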

Additional observations from a re-analysis of the deposited data

Results flagged for a closer look

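Of 30 sets of 5 values, the 10 members in 3 groups, 2 held a mouse far from the others by Dixon's test at 95%, for which the gap to the nearest value must exceed 0.71 of the range. Chance alone flags about 5% of such sets. Egln3 was 0.274 scaled FPKM in HFD estradiol mouse 3, while the other 4 mice lay between 0.166 and 0.197 (gap 0.712 of the range). Ankrd37 was 0.437 scaled FPKM in LFD mouse 5, while the other 4 lay between 0 and 0.1215 (gap 0.722 of the range); 2 of those were at 0.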

How the results depend on the processing

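With the FPKM as deposited the calls over all genes were 276 in HFD estradiol against HFD placebo and 39 in HFD estradiol against LFD, beside 1706 and 432 as reported; members called lower numbered 0 in HFD placebo against LFD and 0 in HFD estradiol against LFD, and members called higher 0 in HFD estradiol against HFD placebo. Differences that turned sign under that scaling included those called as reported, in HFD placebo against LFD Epas1 at 0.35, Arnt at 0.44, Egln1 at 0.56 and Bnip3 at 0.38, in HFD estradiol against HFD placebo Arnt at -0.05, and in HFD estradiol against LFD Epas1 at 0.28. They also included Epas1 (-0.07) and Egln1 (-0.22) in HFD estradiol against HFD placebo, Egln1 (0.34) and Arnt (0.40) in HFD estradiol against LFD, Kdm3a in all 3 comparisons, and in the last comparison Egln3, whose means differed by 0.0900 FPKM (exact p = 0.0397). With equal sums Arnt was at 0.02 and Egln1 at 0.10 in HFD placebo against LFD, members called lower were 0 there and 0 in HFD estradiol against LFD, members called higher were 1 in HFD estradiol against HFD placebo and 1 in HFD estradiol against LFD, and 831 genes were called in HFD estradiol against HFD placebo. With lane as a term 711 genes and 0 higher members were called in HFD estradiol against HFD placebo, and 162 genes and 0 lower members in HFD estradiol against LFD; within lane 6 the first comparison gave 681 genes and 0 higher members. With no filter 3908 genes were called in HFD placebo against LFD, beside 2431 as reported, and 2606 in HFD estradiol against HFD placebo; more genes were tested there. The cause of the other changes was not tested.

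Leaving out each mouse in turn gave 2154 to 2504 calls over all genes in HFD placebo against LFD, 1413 to 1838 in HFD estradiol against HFD placebo and 300 to 516 in HFD estradiol against LFD. Members called higher ranged from 2 to 2, 2 to 3 and 0 to 1 in these comparisons, and members called lower from 3 to 4, 0 to 0 and 1 to 1. With the replicate number as a block, 2427, 1685 and 431 genes were called, and no call on a member changed. Same-numbered libraries deviated together with correlations of -0.21 to 0.36 (median 0.032, over 0.1 in 5 of 15 pairs). No reference for these correlations was computed, so a link between same-numbered mice was not tested. The labels tie same-numbered samples by nothing but the number. For Egln3, Adm, Ankrd37 and Kdm3a, limma with no filter combined with lane or deposited FPKM was chosen after seeing the data. Fragments limit Ankrd37, Egln3 and Adm most, and these estimates cover counting only.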
